A study of Homo sapiens with 20 samples.

Results

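The 10 genes described here are BMP2, BMP4, BMP7 and GDF6, which encode ligands of the bone morphogenetic protein (BMP) family, NOG and GREM1, which encode secreted antagonists of BMP ligands, and ID1, ID2, ID3 and ID4, which are targets of BMP signaling. They were found by symbol, and all 10 were among the 24196 genes in the table. They had been selected on measured values of the same tumors, with emphasis on PBS replicate 4, so the position of that tumor and the group differences that include it are given as a description without a test.

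BMP ligands are secreted dimers that bring type I and type II serine/threonine kinase receptors together. The type I receptor then phosphorylates SMAD1, SMAD5 and SMAD9, which enter the nucleus with SMAD4 and activate target genes, the ID genes among them. ID proteins hold a helix-loop-helix domain but no DNA-binding region, and they pair with E proteins such as TCF3, TCF4 and TCF12 and keep them from DNA. Noggin (NOG) and gremlin 1 (GREM1) bind ligands outside the cell and keep them from the receptors.

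RNA-seq covered 8 tumors of OVCAR8, a human high-grade serous ovarian carcinoma cell line, grown orthotopically in NSG mice, which lack mature lymphocytes. The mice had received PBS (4 tumors) or sodium gluconate (4 tumors), and the other 12 samples of the series, knockout cells and their controls, were not analysed here. In the study's methods, control cells carrying a non-targeting sgRNA and luciferase were placed in the fat pad at the ovary when the mice were 6 weeks old, and PBS or 1 mg/kg sodium gluconate was injected i.p. weekly for 35 days. The model thus holds 1 human line in a mouse host that lacks an adaptive immune system, and the table lists genes by human symbol. The labels number the tumors as replicates without tying them to animals, so p-values measure the spread between these samples only.

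Values are FPKM, in which fragment counts are divided by gene length and library depth. PBS replicate 4 held 3953206 fragments, against 39325749 to 46551535 in the other 7 tumors, and 15514 genes above 0, against 19991 to 20251. The median gene of 12530 stood 0.29 lower on the log2 scale in this tumor than the median of the other 7, and 0.03 lower after median-ratio scaling. The summed FPKM of 12 ovarian carcinoma markers was 4080 in PBS replicate 4, 3600 to 3700 in the other PBS tumors and 3390 to 4040 in the gluconate tumors. VIM (2080), KRT8 (889) and KRT18 (801) made up most of the sum in PBS replicate 4. PAX8 was detected in all 8 tumors, at 32.4 FPKM in PBS replicate 4 and at least 38 in the others, while MUC16, KRT19 and CDH1 were at or near 0 throughout. In PBS replicate 4, 5 of the 12 markers were below the range of the other 7 tumors, EPCAM at 10.3 against at least 15.7 and KRT7 at 124 against at least 185 among them, and 2 were above it, WT1 at 6.58 against at most 1.82 and VIM at 2080 against at most 1840. Of the 12530 genes, 58.6% were below that range in this tumor and 13.2% above it.

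The ID promoters are shown because these targets of the same ligands held different positions in PBS replicate 4. Each sequence is the 250 bases before the RefSeq transcription start on GRCh38.p14, written 5′ to 3′ on the strand of the gene, namely chr20:31605039-31605288 on the plus strand for ID1, chr2:8681806-8682055 on the plus strand for ID2 and chr1:23559502-23559751 on the minus strand for ID3. Capitals mark GTCT, the core letters of SMAD-binding elements, read on either strand, and CANNTG, the E box to which E proteins bind.
ID1: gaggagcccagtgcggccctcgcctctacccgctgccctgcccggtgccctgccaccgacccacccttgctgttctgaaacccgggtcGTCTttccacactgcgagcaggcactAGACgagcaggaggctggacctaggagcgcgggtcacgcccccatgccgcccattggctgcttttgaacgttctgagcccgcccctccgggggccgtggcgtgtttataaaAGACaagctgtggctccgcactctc
ID2: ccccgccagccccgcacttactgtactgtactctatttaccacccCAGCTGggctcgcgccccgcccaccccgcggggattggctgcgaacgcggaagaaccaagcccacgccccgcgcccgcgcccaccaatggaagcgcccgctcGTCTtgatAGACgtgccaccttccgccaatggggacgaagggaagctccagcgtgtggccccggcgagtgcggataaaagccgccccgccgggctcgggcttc
ID3: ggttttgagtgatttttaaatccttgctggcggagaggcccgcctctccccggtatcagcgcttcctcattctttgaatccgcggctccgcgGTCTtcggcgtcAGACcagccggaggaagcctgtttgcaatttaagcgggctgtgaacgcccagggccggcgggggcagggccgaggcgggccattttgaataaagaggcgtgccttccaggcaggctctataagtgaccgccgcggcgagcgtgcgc
GTCT occurred 3 times in ID1, 2 times in ID2, 2 times in ID3 and 1 time in the ID4 promoter, and 77.5% of 35116 promoter windows of this length held it. CANNTG occurred 1 time each in ID2 and ID4 and not in ID1 or ID3, and 61.8% of the windows held it. GGCGCC, a GC-rich motif bound by BMP-activated SMADs, occurred in none of the 4 windows and in 16.4% of all. These matches describe letters only. Of the 10 genes, 6 matched the RefSeq windows by symbol, BMP4 and GREM1 with several windows each.

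Among the ligands, BMP4 was set apart in 1 tumor. BMP4, at chr14:53949736-53958761 on the minus strand of GRCh38, encodes a ligand that patterns mesoderm and many epithelia. Its FPKM was 1.33, 2.3, 0.976 and 11.4 in PBS replicates 1 to 4 and 1.21, 1.33, 1.01 and 0.986 in gluconate replicates 1 to 4. PBS replicate 4 was 4.94-fold above the highest of the other 7 tumors, on 112 fragments with a 95% Poisson interval of 9.37 to 13.7 FPKM, which covers counting error only. In bulk tissue, fewer cells of a kind and less RNA per cell cannot be told apart, for this gene and for all others below.

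BMP2, a close relative of BMP4 that binds the same receptors and lies at chr20:6767664-6780280 on the plus strand, was lower overall. It was at 0.656, 0.564, 0.219 and 2.0 FPKM in PBS replicates 1 to 4 and at 0.378, 0.56, 0.516 and 0.528 FPKM in the gluconate tumors. PBS replicate 4 again had the highest value, 3.05-fold above the next, on 28 fragments with an interval of 1.33 to 2.89 FPKM. Among the other 7 tumors, PBS replicate 3 was the lowest and the gluconate tumors lay inside the PBS range.

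GDF6, a ligand of joint and skeletal patterning, took the opposite position. It was at 3.93, 3.92, 4.1 and 0.545 FPKM in PBS replicates 1 to 4 and at 4.38, 3.9, 7.01 and 4.73 FPKM in the gluconate tumors. It was thus the highest of these 4 ligands in the 7 deeper tumors, and in PBS replicate 4 it stood 7.15-fold below the lowest of them. That value rested on 8 fragments, where 60.1 would have stood at this depth for the median of the other 7, and its interval of 0.235 to 1.07 FPKM lay below their range.

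BMP7, a ligand of kidney and eye development at chr20:57168748-57266629, was at 0 in 6 tumors and had 1 fragment each in gluconate replicates 1 and 4. A count of 0 allows up to 3 fragments, or 0.189 FPKM in PBS replicate 4 and at most 0.019 FPKM in the other tumors at 0, so BMP7 was at or under that limit in all 8 tumors.

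Of the antagonists, NOG, at chr17:56593699-56595590 on the plus strand, differed between PBS tumors. Its FPKM was 0.665, 3.02, 1.81 and 2.78 in PBS replicates 1 to 4 and 0.752, 0.525, 0.439 and 0.66 in gluconate replicates 1 to 4. PBS replicates 2, 3 and 4 were above every gluconate tumor, and PBS replicate 1 lay among them. PBS replicate 4 was therefore inside the range of the other 7 as deposited, with 21 fragments and an interval of 1.72 to 4.24 FPKM, but above it after median-ratio scaling, at 3.25 against at most 2.95, and after quantile normalization.

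GREM1, at chr15:32717974-32745107 on the plus strand, was low in all tumors. Its FPKM was 0.0637, 0.0145, 0.302 and 0 in the PBS tumors and 0.0687, 0.0474, 0.055 and 0.163 in the gluconate tumors. The 0 in PBS replicate 4 allows up to 3 fragments, or 0.0513 FPKM, where 3.73 fragments would have stood for the median of the other 7. PBS replicate 2 and gluconate replicate 2 lie under that limit, so a value below the range of the other 7 was not detectable at this depth.

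ID1, at chr20:31605283-31606515 on the plus strand, was the most abundant of the 10 genes in the 7 deeper tumors. Its FPKM was 7.32, 9.88, 10.3 and 6.62 in PBS replicates 1 to 4 and 10.4, 8.82, 8.26 and 9.02 in the gluconate tumors. The highest of those 7 was 1.42-fold the lowest. In PBS replicate 4, ID2 and BMP4 were above it. PBS replicate 4 stood below all of them as deposited, on 32 fragments, but its interval of 4.53 to 9.35 FPKM overlapped their range, and it was inside that range after median-ratio scaling and after quantile normalization.

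ID2, at chr2:8678845-8684453 on the plus strand, was the gene with the widest gap. Its FPKM was 4.19, 3.51, 1.04 and 48.7 in PBS replicates 1 to 4 and 1.99, 3.2, 1.37 and 1.67 in the gluconate tumors. PBS replicate 4 was 24.5-fold above the median and 11.6-fold above the highest of the other 7 tumors, on 250 fragments with an interval of 42.8 to 55.1 FPKM. By FPKM rank among all genes, ID2 stood at 1192 in this tumor and between 7695 and 11000 in the others.

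ID3, at chr1:23557918-23559794 on the minus strand, was at 1.55, 1.9, 2.43 and 2.93 FPKM in PBS replicates 1 to 4 and at 1.85, 1.89, 0.99 and 1.38 FPKM in the gluconate tumors. The value in PBS replicate 4 was the highest, but it rested on 11 fragments and its interval of 1.46 to 5.24 FPKM overlapped the range of the others. ID4, at chr6:19837386-19840684 on the plus strand, was near 0, with 0 to 9 fragments in the 7 deeper tumors and 4 fragments in PBS replicate 4, which gave 0.261 FPKM there against at most 0.051 elsewhere. The 4 ID genes thus held different positions in 1 tumor, with ID2 far above the range of the others and ID1 below it, or inside it after either scaling.

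**Figure D1:**
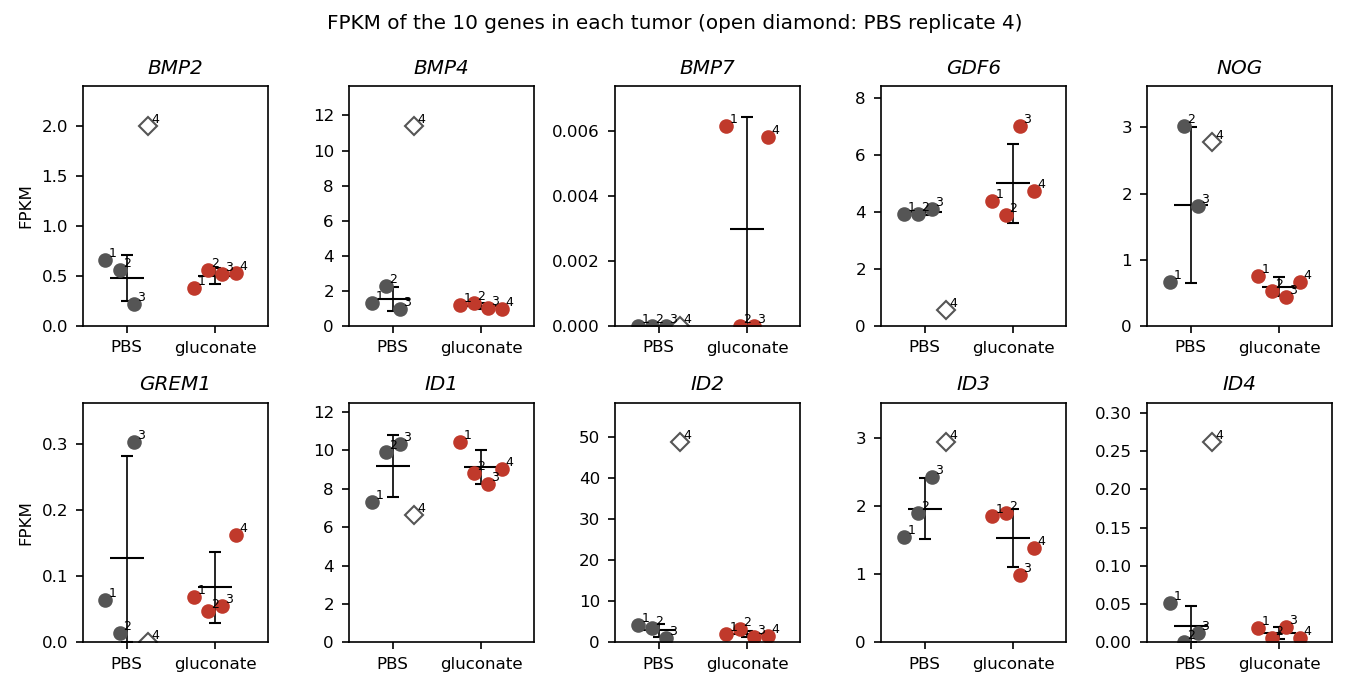
FPKM of each of the 10 genes (vertical axes, linear from 0, scaled per gene) in the PBS and gluconate tumors, with replicate numbers beside the points. Filled points are the 7 deeper tumors, the open diamond is PBS replicate 4, and the line and bars are the mean and SD of the filled points, cut at 0. ID2 reached 48.7 in PBS replicate 4 and at most 4.19 in the others, and all groups of filled points overlap.

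Across all genes, positions outside the range of the other 7 were common in PBS replicate 4. Of the 6 genes of the 10 with a mean of at least 0.5 FPKM over the 7 deeper tumors, BMP4, ID2 and ID3 were above the highest, as were 13.2% of 12530 genes. GDF6 and ID1 were below the lowest, as were 58.6% of genes. After median-ratio scaling, 29.7% of genes were above and 35% below. At least 4-fold above the highest stood BMP4 and ID2, against 0.543% of genes, and at least 4-fold below the lowest stood GDF6, against 2.28% of genes. As the 10 genes were chosen for this tumor, nothing is read from these counts.

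**Figure D2:**
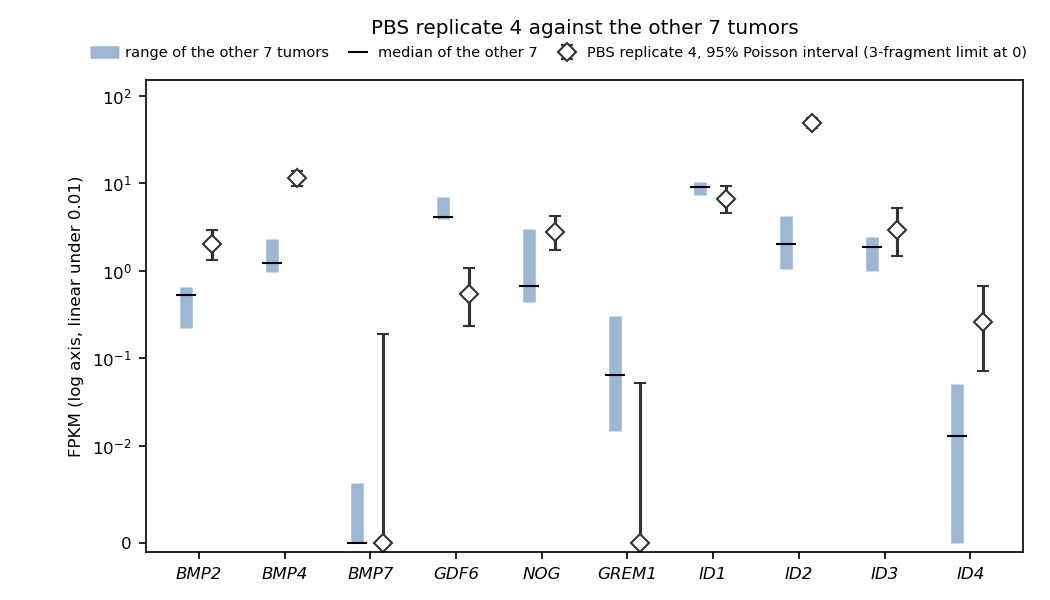
FPKM (vertical axis, logarithmic, linear under 0.01) of each gene in PBS replicate 4 (diamonds with 95% Poisson intervals, or the 3-fragment limit where no fragment was counted) beside the range (blue bars) and median (black lines) of the other 7 tumors. The intervals of BMP2, BMP4, ID2 and ID4 lie above the bars and that of GDF6 lies below.

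Markers of other cell types were examined in the same tumor. The tumors grew in mice, and whether mouse fragments were counted on these human symbols is not given in the sources used here, so the sums do not separate host from human cells. The summed FPKM of 11 fibroblast markers was 207 in PBS replicate 4, 347 to 432 in the other PBS tumors and 387 to 524 in the gluconate tumors. SPARC (161) and COL1A1 (41.4) gave nearly all of the 207, and COL1A2, DCN, PDGFRA and POSTN were near 0 in all 8 tumors. In PBS replicate 4, COL1A2, PDGFRA and POSTN were at 0. Of the 11, 7 were below the range of the other 7 tumors, beside 58.6% of the 12530 genes with a mean of at least 0.5 FPKM. For 10 granulosa and theca cell markers the sum was 22.9, against 5.69 to 7.01 and 3.91 to 5.7, of which FOXL2, a transcription factor of granulosa cells, gave 21.5, while 8 of the 10, FSHR, CYP19A1 and STAR included, were at 0. For 8 endothelial markers in the table it was 10.2, against 13.9 to 15.8 and 12.3 to 16.9, with CDH5, KDR and CLDN5 at 0. For 7 myeloid markers it was 27.1, against 25.9 to 29 and 20.8 to 28, of which CD68 gave 25.7, with PTPRC, CD14, LYZ and FCER1G at 0. For 4 adipocyte markers it was 12.2, against 6.64 to 9.0 and 6.0 to 8.46, all of it from LPL, with PLIN1, FABP4 and CIDEC at 0. For 6 skeletal muscle markers it was 2.07, against 1.61 to 5.06 and 1.54 to 3.78, and for 4 mesothelial markers 3.44, against 3.91 to 6.62 and 3.27 to 4.42. HBA1 and HBB, the 2 red blood cell genes in the table, were at 0. The marker genes named here at 0 were low in the other 7 tumors as well, at most 0.301 FPKM, the highest value of HBA1. A count of 0 in PBS replicate 4 allows up to 3 fragments, so it is not read as an absence particular to this tumor. The part of the lower depth and of these markers in the levels of the 10 genes was not tested.

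The question of whether gluconate tumors differed from PBS tumors was therefore tested without PBS replicate 4, with limma on log2(FPKM + 0.1) in 3 PBS and 4 gluconate tumors. Of the 6 genes tested, 0 had an adjusted p under 0.05 (Benjamini-Hochberg over 12530 genes), and the same held for 0% of all genes, with a lowest adjusted p of 0.799. At an unadjusted p under 0.05, 1 of the 6 was lower, NOG, against 3.36% of genes, or 421, and 0 of the 6 were higher, against 2.85% of genes, or 357. With voom on the recovered fragments, 0 genes passed the adjusted threshold, and 444 lower and 316 higher genes had an unadjusted p under 0.05. None of the 6 had groups without overlap, which 3.66% of genes had in the lower and 2.43% in the higher direction.

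NOG had the lowest p of the 10. It was at 1.83 ± 1.18 FPKM (SD, n = 3) with PBS and at 0.594 ± 0.139 FPKM (SD, n = 4) with gluconate, a log2 difference of -1.28 with an SE of 0.40 and a limma adjusted p of 0.799 (unadjusted 0.0104). The exact permutation test gave a two-sided p of 0.114, and with 35 assignments it cannot give less than 0.0571. Without PBS replicate 2, the highest value, the difference was -0.82 (limma adjusted p = 0.72, unadjusted 0.0504). Without PBS replicate 1, the lowest PBS value, it was -1.84 (limma adjusted p = 0.171, unadjusted 8.93e-05).

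The differences of the 2 tested ligands were smaller. BMP4 was at 1.54 ± 0.687 FPKM (SD, n = 3) with PBS and at 1.14 ± 0.166 FPKM (SD, n = 4) with gluconate, a log2 difference of -0.33 (SE 0.25, limma adjusted p = 0.816), which was -0.01 without PBS replicate 2 and -0.59 without PBS replicate 3 (limma adjusted p = 1.0, unadjusted 0.0227). GDF6 was at 3.98 ± 0.0998 and 5.0 ± 1.38 FPKM, a difference of 0.29 (SE 0.17, limma adjusted p = 0.813), which was 0.12 without gluconate replicate 3. With all 8 tumors the differences were -1.06 for BMP4 and 0.95 for GDF6, so both were larger in size with PBS replicate 4.

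The ID genes likewise did not pass the test. ID1 was at 9.17 ± 1.61 FPKM (SD, n = 3) and 9.12 ± 0.903 FPKM (SD, n = 4), a log2 difference of 0.00 with an SE of 0.13 and a limma adjusted p of 0.997. ID2 was at 2.91 ± 1.65 and 2.06 ± 0.803 FPKM, a difference of -0.34 (SE 0.43, limma adjusted p = 0.891). It was -0.93 without PBS replicate 3 (limma adjusted p = 1.0, unadjusted 0.00611), 0.02 without PBS replicate 1 and -1.40 with all 8 tumors, so its size changed with single PBS tumors. ID3 was at 1.96 ± 0.443 and 1.53 ± 0.429 FPKM, a difference of -0.36 (SE 0.23, limma adjusted p = 0.813), which was -0.18 without gluconate replicate 3 and -0.20 without PBS replicate 3.

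BMP2, BMP7, GREM1 and ID4 had means under 0.5 FPKM over the 7 tumors and were not in that fit. Their differences in mean log2(FPKM + 0.1) were 0.12, 0.04, -0.14 and -0.09, with exact permutation p-values of 0.857, 0.571, 0.743 and 0.686 in that order. With all 8 tumors, BMP2 was at -0.36, GREM1 at 0.11 and ID4 at -0.49, so the sign of BMP2 and of GREM1 turned with that 1 tumor.

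**Figure D3:**
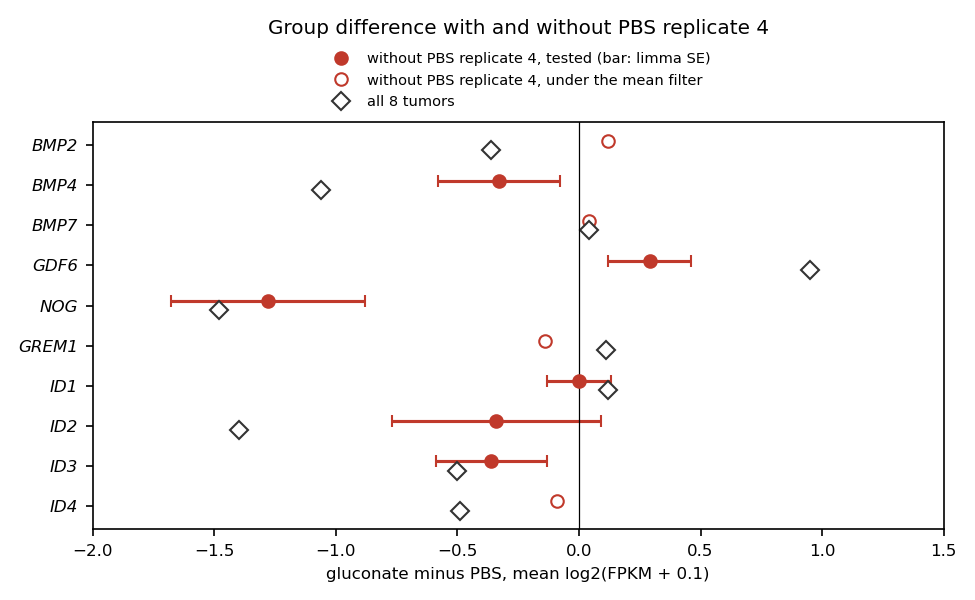
Difference between gluconate and PBS tumors in mean log2(FPKM + 0.1) (horizontal axis) for each gene. Red points leave out PBS replicate 4 (filled with limma SE where tested, open under the mean of 0.5 FPKM), and diamonds use all 8 tumors; BMP4, GDF6 and ID2 move most between them, from -0.33 to -1.06, from 0.29 to 0.95 and from -0.34 to -1.40.

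The rest of the pathway was read from a list of 75 genes besides the 10, of which 66 were in the table and 40 were tested. Of these, 0 had a limma adjusted p under 0.05, 2 were lower and 4 higher at an unadjusted p under 0.05, and by voom these counts were 0, 2 and 3. Over all genes tested, 3.36% were lower and 2.85% higher at that p. In sign, 18 were lower and 22 higher, and the median log2 difference was 0.01, beside 0.00 over all genes tested.

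Antagonists other than NOG and GREM1 gave 3 of the 4 higher genes, among 8 tested, of which 7 were higher and 1 lower in sign, where 2.85% of all genes were higher at that p. The lower one, FST, which encodes follistatin, had the largest difference of the 8 in size, -0.61 (SE 0.32, limma adjusted p = 0.813, unadjusted 0.0859), and was named after its values were seen. CHRDL1, a chordin-like antagonist, was at 12.3 ± 2.86 FPKM (SD, n = 3) with PBS and at 17.8 ± 2.77 FPKM (SD, n = 4) with gluconate, a log2 difference of 0.55 (SE 0.16, limma adjusted p = 0.799, unadjusted 0.00597). FSTL1, a follistatin-like glycoprotein that binds BMP4, was at 112 ± 10.1 and 139 ± 16.4 FPKM, a difference of 0.31 (limma adjusted p = 0.799, unadjusted 0.0115). CHRD, or chordin, was at 1.11 ± 0.135 and 1.44 ± 0.171 FPKM, a difference of 0.34 (limma adjusted p = 0.799, unadjusted 0.0407). Their sign was opposite to that of NOG and FST, and none of them passed the adjusted threshold.

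The lower genes were RGMB, a BMP co-receptor, and SMURF2, a ubiquitin ligase that targets SMADs and receptors. RGMB was at 4.42 ± 0.0538 FPKM (SD, n = 3) with PBS and at 3.8 ± 0.161 FPKM (SD, n = 4) with gluconate, a log2 difference of -0.21 (limma adjusted p = 0.799, unadjusted 0.0237). SMURF2 was at 38.6 ± 13.2 and 27.3 ± 3.45 FPKM, a difference of -0.45 (limma adjusted p = 0.799, unadjusted 0.0376), which was -0.19 without PBS replicate 3. The type I and type II receptors BMPR1A, BMPR1B, BMPR2 and ACVR1 differed by -0.22 to 0.13, and the transducers SMAD1, SMAD5 and SMAD4 by -0.08 to 0.14, with limma adjusted p-values of at least 0.813. These receptor and SMAD genes, and HES1 in the plot of the list, were named after their values were seen.

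**Figure D4:**
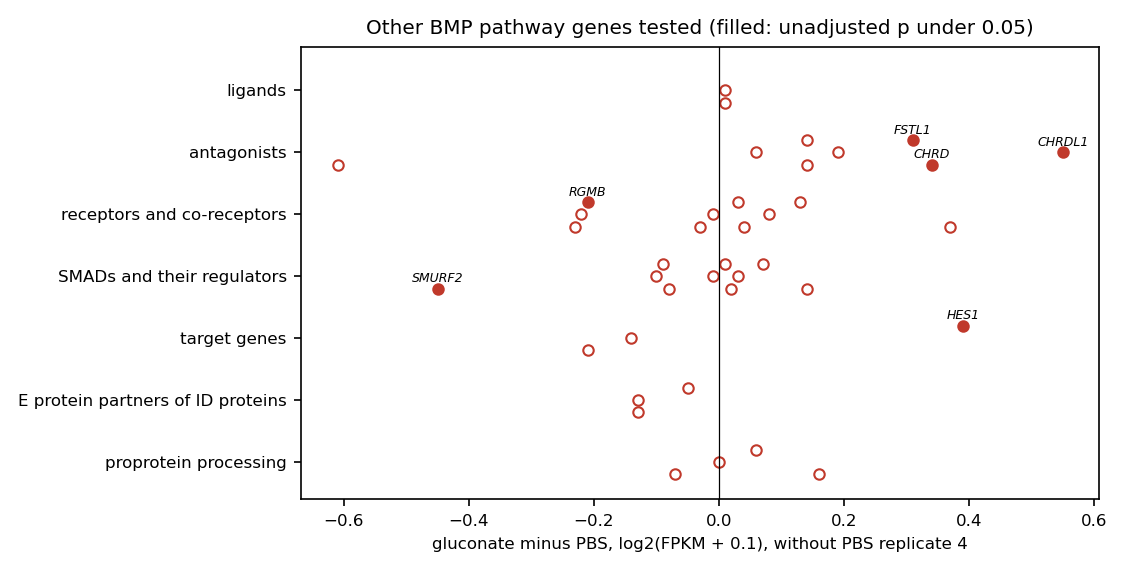
Log2 difference between gluconate and PBS tumors without PBS replicate 4 (horizontal axis) for the 40 other BMP pathway genes tested, 1 point per gene, in rows by role. Filled points have an unadjusted p under 0.05: CHRDL1, FSTL1, CHRD and HES1 are higher and RGMB and SMURF2 lower, while 0 passed the adjusted threshold.

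In PBS replicate 4, the same list held genes far above the other tumors as well, some of them named here after their values were seen. With at least 10 fragments in it and at least 4-fold above the highest of the other 7 stood 6 of the 66 genes, and BMP4 and ID2 of the 10, against 0.653% of all 24196 genes. Inhibitory SMAD6, a feedback target of BMP signaling, was at 1.79 FPKM against at most 0.198. FST, which encodes the antagonist follistatin, was at 12.3 against at most 1.13. ZNF423, which encodes a SMAD-binding zinc finger protein, was at 1.56 against at most 0.0972, RGMA, a co-receptor, at 0.333 against at most 0.0451, and TCF4, an E protein partner of ID proteins, at 4.25 against at most 0.791. SMAD7, the other inhibitory SMAD, was under that 4-fold limit, at 8.62 against at most 2.41, or 3.57-fold. Of the 40 tested genes of the list, 10 were above the range of the other 7 tumors and 24 below it, beside 13.2% and 58.6% of all genes tested, all as deposited. After median-ratio scaling, 29.7% of all genes tested were above and 35% below, and after quantile normalization 24% and 38.4%. The list was counted as deposited only. As deposited, SMAD1 was at 2.19 against at least 4.12 and ACVRL1 at 0.46 against at least 1.06. Of the 5 target genes tested besides the 10, SMAD7 was above the range and MSX1 below it, at 3.13 against at least 3.5. The other 3 were inside it.

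Whether ligands, antagonists and ID genes moved together was examined over the 7 deeper tumors in 28 pairs of the 8 genes with at least 10 fragments in each. None of the 28 pairs passed a Benjamini-Hochberg adjusted permutation p under 0.05, for Pearson's r or for Spearman's rho. The largest r in size was that of GDF6 with ID3, at -0.83 (exact permutation p = 0.0242, adjusted 0.273), with a rho of -0.68 (exact permutation p = 0.11, adjusted 0.354), but it was 0.23 without the 2 tumors farthest from the median GDF6, so it rests on those tumors. BMP4 with GREM1 gave an r of -0.72 (exact permutation p = 0.0742, adjusted 0.297), a rho of -0.89 (exact permutation p = 0.0123, adjusted 0.172) and an r of -0.62 without the 2 farthest tumors. BMP2 with GREM1 gave an r of -0.76 (exact permutation p = 0.0472, adjusted 0.297) and a rho of -0.64 (exact permutation p = 0.139, adjusted 0.354), and its r was -0.22 without the 2 farthest tumors. The highest positive r was that of BMP2 with ID2, at 0.76 (exact permutation p = 0.0254, adjusted 0.273), with a rho of 0.89 (exact permutation p = 0.0123, adjusted 0.172) and an r of 0.85 without the 2 tumors farthest from the median BMP2. BMP4 with ID2 gave an r of 0.74 (exact permutation p = 0.0292, adjusted 0.273), a rho of 0.86 (exact permutation p = 0.0238, adjusted 0.222) and an r of 0.90 without the 2 tumors farthest from the median BMP4. Pairs of BMP2 and BMP4 with ID1 and ID3 went both ways. BMP2 gave an r of -0.71 with ID1 (exact permutation p = 0.0679, adjusted 0.297) and of -0.56 with ID3 (exact permutation p = 0.215, adjusted 0.43). BMP4 gave an r of 0.1 with ID1 and of 0.27 with ID3. The points share libraries of like depth, and within the gluconate tumors the r with ID2 was 0.18 for BMP2 and 0.91 for BMP4.

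**Figure D5:**
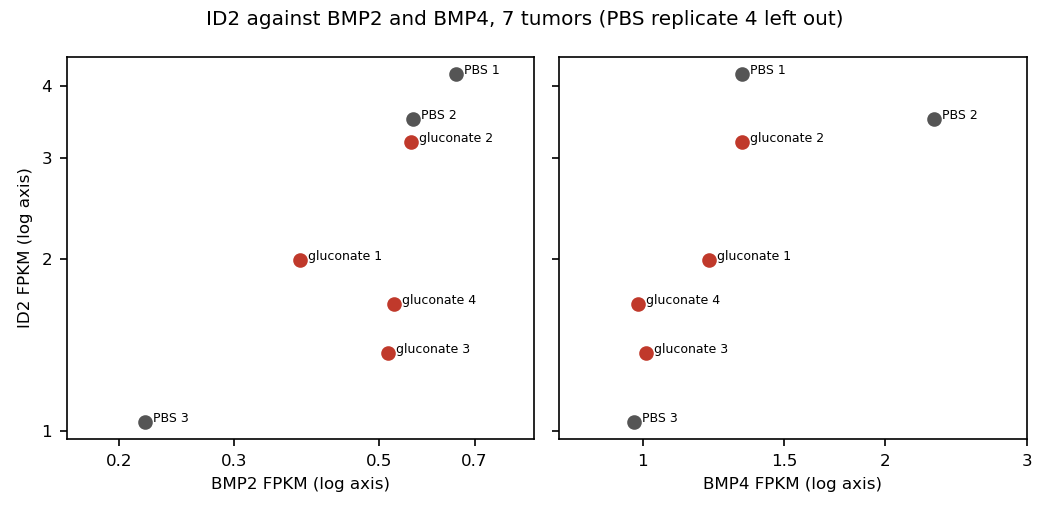
FPKM of ID2 (vertical axis, logarithmic) against BMP2 (left) and BMP4 (right, both logarithmic) in 3 PBS (grey) and 4 gluconate (red) tumors, PBS replicate 4 left out. PBS replicate 3 is lowest in all 3 genes and PBS replicate 1 highest in ID2.

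The genes whose pattern over the 7 tumors was most like that of ID1, the gene of the 10 with the highest median, were SMPDL3A, ZNF674-AS1, PPP1R13B, THAP3 and DICER1-AS1, with Pearson's r on log2(FPKM + 0.1) of 0.946, 0.938, 0.936, 0.933 and 0.925 across 7 libraries. Over 0.9 stood 15 of the tested genes.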

How the data were processed

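The authors deposited 1 table of FPKM values (fragments divided by gene length and library depth) for polyA RNA-seq of tumors; the submitters' notes name GRCh38, and the aligner, counter and annotation are not given in the sources used here. Columns headed C were read as PBS and T as gluconate, from the ratio axis of the study's plot and because no other groups hold 4 libraries. The study's text speaks of treated cells where the labels say tumors, and the labels were followed. FPKM steps gave whole fragments (tolerance 0.001) in 100% of values, from which depths and Poisson intervals were computed.

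The 10 genes and all lists were chosen with earlier results of these data known. Groups were compared with limma 3.58.1 (trend, R 4.3.3) on log2(FPKM + 0.1), mean FPKM of at least 0.5 over 7 libraries, Benjamini-Hochberg over all genes. Of the pathway list, the 3 rising and 3 falling genes with the lowest p were named (NOG is one of them), and 1 listed gene is not reported here beyond the counts. Scripts were tested on simulated data. Positions are from GENCODE 29, promoters from RefSeq. Alternatives were pseudocounts of 1 and 0.01, no filter, a mean of at least 1 FPKM, median-ratio scaling, quantile normalization, all 8 libraries, a replicate block, voom and leaving out each library. Replicates of a group differed far beyond sampling noise, so each counted as 1 sample.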

Additional observations from a re-analysis of the deposited data

Results flagged for a closer look

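The 10 genes were selected on PBS replicate 4, so its distance from the other PBS tumors is a description and no test, and no chance rate applies to it. It was widest, against the range of the 4 PBS tumors, in 3 genes. ID2 was at 48.7 FPKM there, against 1.04 to 4.19 in the other PBS tumors. BMP4 was at 11.4 FPKM, against 0.976 to 2.3. GDF6 was at 0.545 FPKM, against 3.92 to 4.1.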

How the results depend on the processing

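Under every alternative run, 0 genes and 0 of the list passed the adjusted threshold, and none of the 28 pairs examined did with a pseudocount of 1 or quantile normalization. At an unadjusted p under 0.05, 421 genes were lower and 357 higher; without the filter these were 633 and 550, with all 8 libraries 186 were lower, and leaving out each library gave 285 to 678 lower and 212 to 773 higher, the highest without PBS replicate 1. Of the 10 genes, 0 to 3 were lower (BMP4, ID2 and NOG without PBS replicate 3, none without PBS replicate 2) and 0 to 1 higher (GDF6 without gluconate replicate 2). Of the pathway list, 1 was lower and 2 higher without the filter, 1 lower with all 8 libraries, and 0 to 3 lower and 2 to 4 higher when each library was left out. PBS replicate 4 was above the range of the others in 5 genes, and in 5 to 6 when each of the others was left out. GDF6, ID1 and GREM1 were listed below it, also when each of the others was left out, GREM1 with 0 fragments, at which a value below the range was not detectable. After median-ratio scaling or quantile normalization, 6 were above and 2 below.

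Some signs turned. When each library was left out, ID1 ranged from -0.15 to 0.09, ID2 from -0.93 to 0.02, BMP2 from -0.26 to 0.36, GREM1 from -0.52 to 0.38 and ID4 from -0.21 to 0.08. ID1 was at -0.15 without PBS replicate 1 and -0.06 without gluconate replicate 1, ID2 at 0.02 without PBS replicate 1, BMP2 at -0.36 with all 8 libraries and -0.26 without PBS replicate 3, ID4 at 0.08 without PBS replicate 1, and GREM1 at 0.03 with a pseudocount of 0.01, 0.11 with all 8 libraries and 0.38 without PBS replicate 3. The cause was not tested. For single genes and pairs, 337 of 353 alternatives kept direction and side of the threshold, or stayed within the replicate SD.

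The replicate numbers did not pair the tumors: deviations of same-numbered tumors correlated at -0.073, 0.136 and 0.113. With the replicate block, 302 genes were lower and 269 higher, and NOG was at -1.33 (limma adjusted p = 0.984). With the replicate block and all 8 libraries, 167 genes were lower, and 0 of the list were lower and 2 higher.

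Depth limits PBS replicate 4 most: 1 fragment of GREM1 is worth 0.0171 FPKM there, and the 3-fragment limit of BMP7 is 0.189 FPKM.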
